A study of Homo sapiens with 39 samples.

Results

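RNA from 38 genes of homologous recombination, the Fanconi anemia pathway and the replication checkpoint was followed across HCC1428-LTED cells treated with estrogen receptor ligands. The genes were taken by symbol from a fixed list, which was chosen with earlier results of these data known. All 38 have a row among the 46706 symbols of the deposited table, and all 38 passed the filter of a mean of at least 1 TPM (a transcript level corrected for gene length and scaled to the same total in each library) over the libraries, as did 14404 symbols in all. HCC1428-LTED is a breast cancer cell line kept in long-term estrogen deprivation, so every group shares that state, and it is 1 line. All cells grew in IMEM with 5% charcoal-stripped serum and were exposed for 24 h. The vehicle group received DMSO. The 12 treated groups received 1 of 6 ligands at 30 or 300 nM: Fulvestrant, a receptor degrader in standard clinical use, SAR439859, the hybrids GDC-SAR and AZD-SAR, or their parents GDC-0810 and AZD9496. By the labels, GDC-SAR carries the SAR439859 side chain on the GDC-0810 scaffold, and AZD-SAR carries it on the AZD9496 scaffold. Each of the 13 groups holds 3 libraries, 39 in all. The labels do not say whether these came from separate cultures, so p-values measure the spread between these libraries, which may be technical.

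Homologous recombination repairs a broken chromosome by copying the sister chromatid, and it acts mainly in S and G2 phase. The broken end is first cut back, BRCA1 and BRCA2 then help to prepare it for strand exchange, and the joined molecules are finally taken apart. The Fanconi anemia proteins recognise crosslinked DNA: a core complex attaches ubiquitin to FANCD2 and FANCI, which brings in nucleases and recombination. ATR and CHEK1 form the checkpoint that slows the cell cycle while replication forks are stalled. In breast epithelium, inherited loss of BRCA1, BRCA2 or PALB2 is a well-known cause of cancer, and estrogen drives luminal breast cancer cells into S phase.

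The libraries listed between 15818 and 26756 symbols above 0. Replicate 3 of 30 nM SAR439859 stood apart, with the lowest number of symbols and a median correlation of 0.897 (log2 scale, across genes) with the other libraries. All 8 luminal epithelial markers passed the filter. Of 8 basal and mesenchymal markers 1 passed (FN1), and of 12 fibroblast, endothelial and immune markers 2 passed (COL1A1 and CD68). Summed levels were 6545 to 13520 TPM for the luminal list, 25.0 to 61.9 TPM for the basal list and 14.3 to 32.3 TPM for the third. PGR, the estrogen-induced progesterone receptor gene, fell by 3.33 on the log2(TPM + 1) scale with 300 nM Fulvestrant against DMSO. GREB1, another estrogen-induced gene, fell by 3.01 in the same comparison (limma adjusted p = 5.35e-13 and 5.24e-10).

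Promoter sequence was available for 33 of the 38 genes, from RefSeq (GRCh38.p14), as 300 bases from 250 before to 50 after each start. E2F-type letters (TTTCCCGC, TTTCGCGC, TTTGCCGC or TTTGGCGC, on either strand), a form bound by the E2F factors that drive S phase genes, stood in the promoters of 9 of the 33 (27.3%). The same letters stood in 617 of 9094 tested genes with a promoter sequence (6.78%). CCAAT was found in 18 of 33 (54.5%) against 43.6% of the tested genes. The CHR-type letters TTTGAA and TTCGAA, typical of genes of G2 and mitosis, were found in 3 of 33 (9.09%) against 14.9%. The palindromic estrogen response element was found in 0 of 33 and in 2 of the 9094 tested genes. These shares are descriptions of letters and no test was made. The windows below run 5′ to 3′ on the gene's strand from 100 bases before to 30 after the start, with E2F-type letters in capitals. They show 5 genes that were called lower than DMSO in 5 or more of the 12 ligand comparisons described further on. FANCD2 and TOPBP1 follow, which hold the letters and were called lower in none. For RMI1 and TIPIN the window belongs to a RefSeq start other than the first listed.
XRCC2: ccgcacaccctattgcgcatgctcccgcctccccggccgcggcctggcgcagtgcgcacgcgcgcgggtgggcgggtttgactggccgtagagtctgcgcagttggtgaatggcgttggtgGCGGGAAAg
CLSPN: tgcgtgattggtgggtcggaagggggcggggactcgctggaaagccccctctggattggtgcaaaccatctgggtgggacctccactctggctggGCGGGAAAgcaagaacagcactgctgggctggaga
RMI1: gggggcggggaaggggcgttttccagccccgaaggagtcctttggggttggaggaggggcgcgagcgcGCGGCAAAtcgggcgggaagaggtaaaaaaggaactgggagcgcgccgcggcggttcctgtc
EXO1: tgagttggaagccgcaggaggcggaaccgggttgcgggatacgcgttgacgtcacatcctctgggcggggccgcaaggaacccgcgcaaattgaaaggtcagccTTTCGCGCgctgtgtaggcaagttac
TIPIN: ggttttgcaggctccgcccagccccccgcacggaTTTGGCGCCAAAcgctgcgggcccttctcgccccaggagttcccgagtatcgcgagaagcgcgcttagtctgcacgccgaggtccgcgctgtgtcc
FANCD2: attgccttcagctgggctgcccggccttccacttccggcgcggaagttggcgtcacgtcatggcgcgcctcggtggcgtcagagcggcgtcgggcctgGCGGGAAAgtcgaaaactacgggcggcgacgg
TOPBP1: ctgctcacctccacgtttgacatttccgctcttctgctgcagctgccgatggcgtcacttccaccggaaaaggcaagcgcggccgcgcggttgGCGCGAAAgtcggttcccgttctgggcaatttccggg
They lie at chr7:152676112-152676241 (minus strand) for XRCC2, chr1:35769949-35770078 (minus) for CLSPN, chr9:83980705-83980834 (plus) for RMI1 and chr1:241848104-241848233 (plus) for EXO1. Those of TIPIN, FANCD2 and TOPBP1 lie at chr15:66356656-66356785 (minus), chr3:10026337-10026466 (plus) and chr3:133661912-133662041 (minus). In TIPIN the capitals span 2 overlapping matches, 1 on each strand. FANCA and FANCC also hold a match. Of the 9 genes with the letters 7 were lower than DMSO in at least 1 comparison, against 16 of the 24 without them. The median number of comparisons in which a gene was lower was 6 with the letters and 2.5 without. FANCD2 and TOPBP1 show that the letters were also present in genes called lower nowhere. Their median differences over the 12 comparisons were -0.42 and 0.40. Of the members called lower in all 12 comparisons, XRCC2 holds the letters, while BRCA1, RAD54L and RBBP8 do not.

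The ligands were first set against vehicle. Between 6 and 22 of the 38 genes fell in each of the 12 comparisons, and 1 gene rose in 1 of them. Differences are on the log2(TPM + 1) scale, which understates the change of low genes. A gene counts as having fallen or risen at a Benjamini-Hochberg adjusted p below 0.05 from limma, fitted across the 14404 genes. All 12 comparisons share the same 3 DMSO libraries and are therefore not independent. In the library names the DMSO libraries are numbered apart from the treated ones. Of the DMSO libraries 2 carry the same index (the short tag of a library) as a treated library, while 0 treated libraries share one with each other. Whether the DMSO libraries were prepared apart is not known, and such a difference could not be told apart from treatment. At 300 nM, 20 genes fell with Fulvestrant (52.6% of the 38, against 8.12% of all genes tested) and none rose. SAR439859 lowered 21 (55.3% against 12.8%). GDC-SAR lowered 19 (50% against 10.5%) and AZD-SAR 21 (55.3% against 12.8%). GDC-0810 lowered 10 (26.3% against 9.04%) and AZD9496 6 (15.8% against 2.21%). The median difference of the 38 genes ranged from -0.47 with GDC-0810 to -0.95 with AZD-SAR, while the median of all tested genes lay between 0 and 0.10.

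At 30 nM the counts were close to those at 300 nM. AZD-SAR lowered 22 genes (8.66% of all tested genes were lower), Fulvestrant 21 (7.82%), GDC-SAR 21 (11.1%) and SAR439859 19 (10.2%), or 18 without the library that stood apart. GDC-0810 lowered 8 (8.83%) and raised 1, TOPBP1 (7.95% of tested genes were higher). AZD9496 lowered 6 (2.05%). In the other 11 comparisons no member rose. Of all tested genes, at 300 nM, 11.1% were higher with Fulvestrant, 11.2% with SAR439859, 6.99% with GDC-0810, 3.71% with AZD9496, 9.76% with GDC-SAR and 12.7% with AZD-SAR. At 30 nM these shares were 11.3% with Fulvestrant, 15.3% with SAR439859, 9.21% with AZD9496, 11.4% with GDC-SAR and 11.9% with AZD-SAR. All 195 calls against DMSO were repeated with each library left out in turn, and 127 held throughout. Among the 300 nM calls, those that held were 14 for Fulvestrant, 18 for SAR439859, 12 for GDC-SAR, 16 for AZD-SAR, 4 for GDC-0810 and 3 for AZD9496. Among the 30 nM calls, they were 16 for Fulvestrant, 16 for SAR439859, 11 for GDC-SAR and 16 for AZD-SAR. Only 1 of 9 held for 30 nM GDC-0810 and 0 of 6 for 30 nM AZD9496. The GDC-0810 count at 300 nM dropped to 5 without its replicate 2, to 5 without DMSO replicate 2 and to 6 without DMSO replicate 3. The AZD9496 count at 300 nM dropped to 3 without DMSO replicate 3.

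The 30 nM counts of the same 2 ligands were less firm. For GDC-0810 the count of genes lower became 5, 4 and 3 without its replicates 1, 2 and 3, and 4, 2 and 3 without DMSO replicates 1, 2 and 3. For AZD9496 it became 2 and 1 without its replicates 1 and 2, and 2 without any 1 of the DMSO libraries. The median of all tested genes was 0.18 above DMSO with 30 nM AZD9496, 0.10 above with 300 nM AZD9496 and 0.11 above with 30 nM Fulvestrant. With median-of-ratios scaling, which removes that shift, 11 genes were lower with 300 nM AZD9496 and 8 with 30 nM. The same scaling turned the balance of all genes: with 300 nM AZD9496 from 319 lower and 535 higher to 600 and 413, and with 30 nM from 296 and 1327 to 695 and 530. For 300 nM Fulvestrant the split moved from 1170 lower and 1594 higher to 1634 and 1401, and for 30 nM Fulvestrant from 1127 and 1626 to 1633 and 1340. For 30 nM SAR439859 it moved from 1471 and 2197 to 2093 and 1806, and for 30 nM AZD-SAR from 1247 and 1721 to 1695 and 1470.

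**Figure D1:**
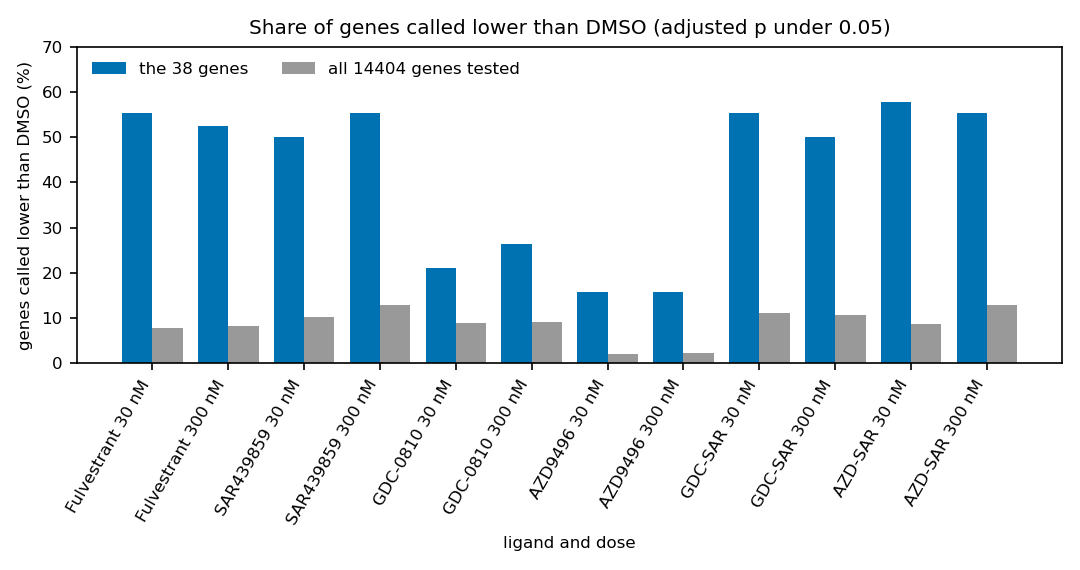
Percent of genes called lower than DMSO by limma (adjusted p below 0.05) for each ligand and dose, among the 38 genes and among all 14404 genes tested. The share among the 38 was above the share among all genes for each ligand at both doses, 52.6% against 8.12% with 300 nM Fulvestrant and 15.8% against 2.21% with 300 nM AZD9496.

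**Figure D2:**
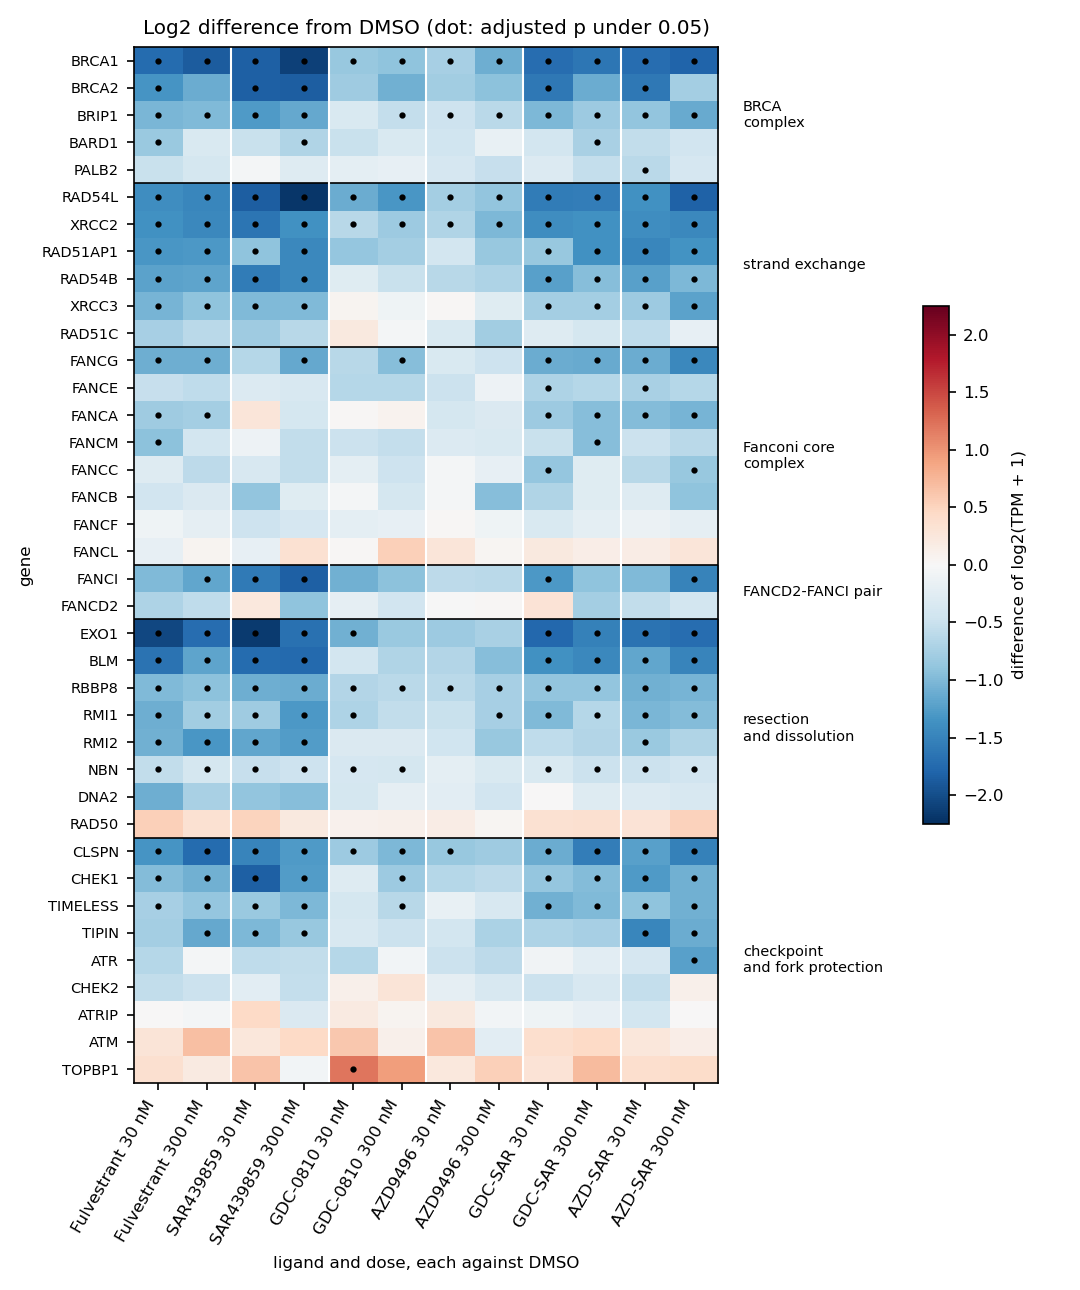
Difference from DMSO on the log2(TPM + 1) scale for the 38 genes (rows, by role) in the 12 treated groups (columns), with marked cells for adjusted p below 0.05. Blocks of lower values cover BRCA1, BRIP1, RAD54L, XRCC2, CLSPN and EXO1, while FANCF, FANCL, ATM and ATRIP carry no mark in any column.

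Of the 5 BRCA complex genes, 4 fell with 300 nM SAR439859, 3 with GDC-SAR and 2 with each of the other ligands at that dose. That is 40% to 80% of the 5, against 2.21% to 12.8% of all tested genes. BRCA1 and BRIP1 fell most often. BRCA1 (chr17:43044295-43170245, minus strand), whose product directs end resection, fell in all 12 comparisons. It was at 41.7, 45.2 and 44.2 TPM with DMSO. With 300 nM SAR439859 it was at 9.39, 8.94 and 9.74 TPM, the lowest group (difference -2.11, SE 0.248, adjusted p = 1.49e-07). With 300 nM Fulvestrant it was at 15.8, 9.20 and 9.64 TPM (-1.87, adjusted p = 1.63e-06). None of the 36 treated libraries reached the lowest DMSO library; the highest was 33.6 TPM. How many of all tested genes lay apart from DMSO in this way was not counted. Here and below such separation is therefore description only. GDC-SAR at 300 nM gave 15.2, 12.5 and 12.98 TPM (-1.62, adjusted p = 1.74e-05). AZD-SAR at 300 nM gave 20.7, 8.64 and 9.15 TPM (-1.80, adjusted p = 2.79e-06), with replicate 1 more than 2 times the others. With the parent ligands BRCA1 was higher than with their hybrids in mean. AZD9496 at 300 nM gave 22.1, 17.7 and 20.3 TPM (-1.09, adjusted p = 0.0059). GDC-0810 at 300 nM gave 33.1, 16.3 and 21.8 TPM (-0.91, adjusted p = 0.0121, and 0.0935 without its replicate 2).

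BRCA1 at 30 nM lay between 10.3 and 16.3 TPM in the 12 libraries of Fulvestrant, SAR439859, GDC-SAR and AZD-SAR, and between 19.6 and 33.6 TPM in the 6 of GDC-0810 and AZD9496. The call with 30 nM GDC-0810 (-0.85, adjusted p = 0.0173) was lost without its replicate 3 (0.0755) and without DMSO replicates 2 (0.0595) or 3 (0.0505). The call with 30 nM AZD9496 (-0.75, adjusted p = 0.0477) was lost without its replicates 1 (0.179) or 2 (0.133), and without DMSO replicates 1 (0.084), 2 (0.135) or 3 (0.118). BRCA1 shares short stretches with a neighbouring pseudogene, and how the counting treated such reads is not given.

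BRCA2 (chr13:32315474-32400266, plus strand), which acts on single-stranded DNA before strand exchange, fell in 5 comparisons, and the 2 calls with SAR439859 held without each library. The call with 30 nM Fulvestrant was lost without its replicates 2 (0.112) or 3 (0.14) and without DMSO replicates 1 (0.0778), 2 (0.0646) or 3 (0.113). Those with 30 nM GDC-SAR and AZD-SAR were lost without GDC-SAR replicate 3 (0.057) and AZD-SAR replicate 2 (0.0535). It was at 7.72, 6.66 and 9.18 TPM with DMSO and at 0.771, 1.27 and 2.52 TPM with 300 nM SAR439859 (-1.86, SE 0.453, adjusted p = 0.00288). These groups did not overlap. The 30 nM SAR439859 libraries were spread over 6.17, 0.966 and 0.0662 TPM (-1.83, adjusted p = 0.00314), the lowest being the library that stood apart. Without that library the difference was -1.23 (adjusted p = 0.0441). With 300 nM Fulvestrant BRCA2 was at 5.77, 1.51 and 3.001 TPM, which did not pass (-1.11, adjusted p = 0.0857). It did pass without Fulvestrant replicate 1 (0.043), with median-of-ratios scaling (0.0465) and without the 30 nM SAR439859 libraries (0.0221). BRCA2 had an SE nearly 2 times that of BRCA1. BRIP1, a helicase that binds BRCA1, fell in 11 comparisons, of which 8 held without each library. It was at 4.70, 5.12 and 5.38 TPM with DMSO and between 0.918 and 4.24 TPM in the treated libraries, with no overlap. BARD1, the ubiquitin ligase partner of BRCA1, fell in 3 comparisons, and 1 of these calls held without each library. PALB2, the bridge between BRCA1 and BRCA2, fell only with 30 nM AZD-SAR (-0.61, adjusted p = 0.0256), a call that did not hold without DMSO replicate 1 (0.0966) or 2 (0.0836), nor without AZD-SAR replicate 1 (0.072), 2 (0.0616) or 3 (0.0517).

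At 300 nM 5 of the 6 strand exchange genes fell with Fulvestrant, SAR439859 and both hybrids, and 2 with GDC-0810 and AZD9496. These are 83.3% and 33.3%, against 2.21% to 12.8% of all tested genes over the 6 ligands. RAD54L (chr1:46247688-46278473, plus strand), a motor protein of strand invasion, fell in all 12 comparisons. It was at 7.77, 8.23 and 7.52 TPM with DMSO and at 0.758, 0.915 and 1.20 TPM with 300 nM SAR439859 (-2.18, SE 0.189, adjusted p = 4.72e-10). This was the largest difference of any member at 300 nM. RAD54L was at 2.95, 1.67 and 2.14 TPM with 300 nM Fulvestrant (-1.46, adjusted p = 1.09e-06). With 300 nM AZD9496 it was at 2.63, 4.52 and 4.47 TPM (-0.88, adjusted p = 0.00342). Every treated library was below every DMSO library, the highest being 4.96 TPM. XRCC2 (chr7:152644779-152676165, minus strand), a strand exchange factor whose promoter window is printed above, also fell in all 12. It was at 6.15, 5.36 and 5.12 TPM with DMSO and at 1.61, 1.003 and 1.62 TPM with 300 nM Fulvestrant (-1.45, SE 0.182, adjusted p = 6.79e-07). With 300 nM GDC-0810 it was at 2.43, 3.28 and 2.52 TPM (-0.81, adjusted p = 0.00286). The highest treated library of XRCC2, 3.28 TPM, lay below its lowest DMSO library.

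XRCC3 (chr14:103697609-103715504, minus strand) also acts in strand exchange. It was at 33.5, 40.3 and 41.3 TPM with DMSO and at 28.99, 37.2 and 42.0 TPM with 300 nM GDC-0810, which overlapped (-0.10, adjusted p = 0.826). With 300 nM AZD-SAR it was at 13.8, 17.6 and 16.6 TPM (-1.21, adjusted p = 0.000239). XRCC3 fell in 8 comparisons, all those of Fulvestrant, SAR439859, GDC-SAR and AZD-SAR, and 5 of these calls held without each library. RAD51AP1 (chr12:4538798-4560048, plus strand), which stimulates strand invasion, was at 11.7, 8.78 and 11.6 TPM with DMSO and 2.23, 6.00 and 3.77 TPM with 300 nM Fulvestrant (-1.29, SE 0.309, adjusted p = 0.00323). It fell in 8 comparisons, of which 6 held without each library; the 30 nM SAR439859 libraries, at 3.01, 4.17 and 10.4 TPM, overlapped DMSO. RAD54B, a relative of RAD54L, fell in the same 8 groups (6 calls held), by 0.96 to 1.57 on the log2 scale. RAD51C, found in complexes with XRCC2 and XRCC3, fell in none (adjusted p at least 0.0544), although 30 nM SAR439859 passed with median-of-ratios scaling (0.0304). RAD51C had the highest DMSO level of the 38 genes, 46.1 ± 6.94 TPM (SD, n = 3).

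**Figure D3:**
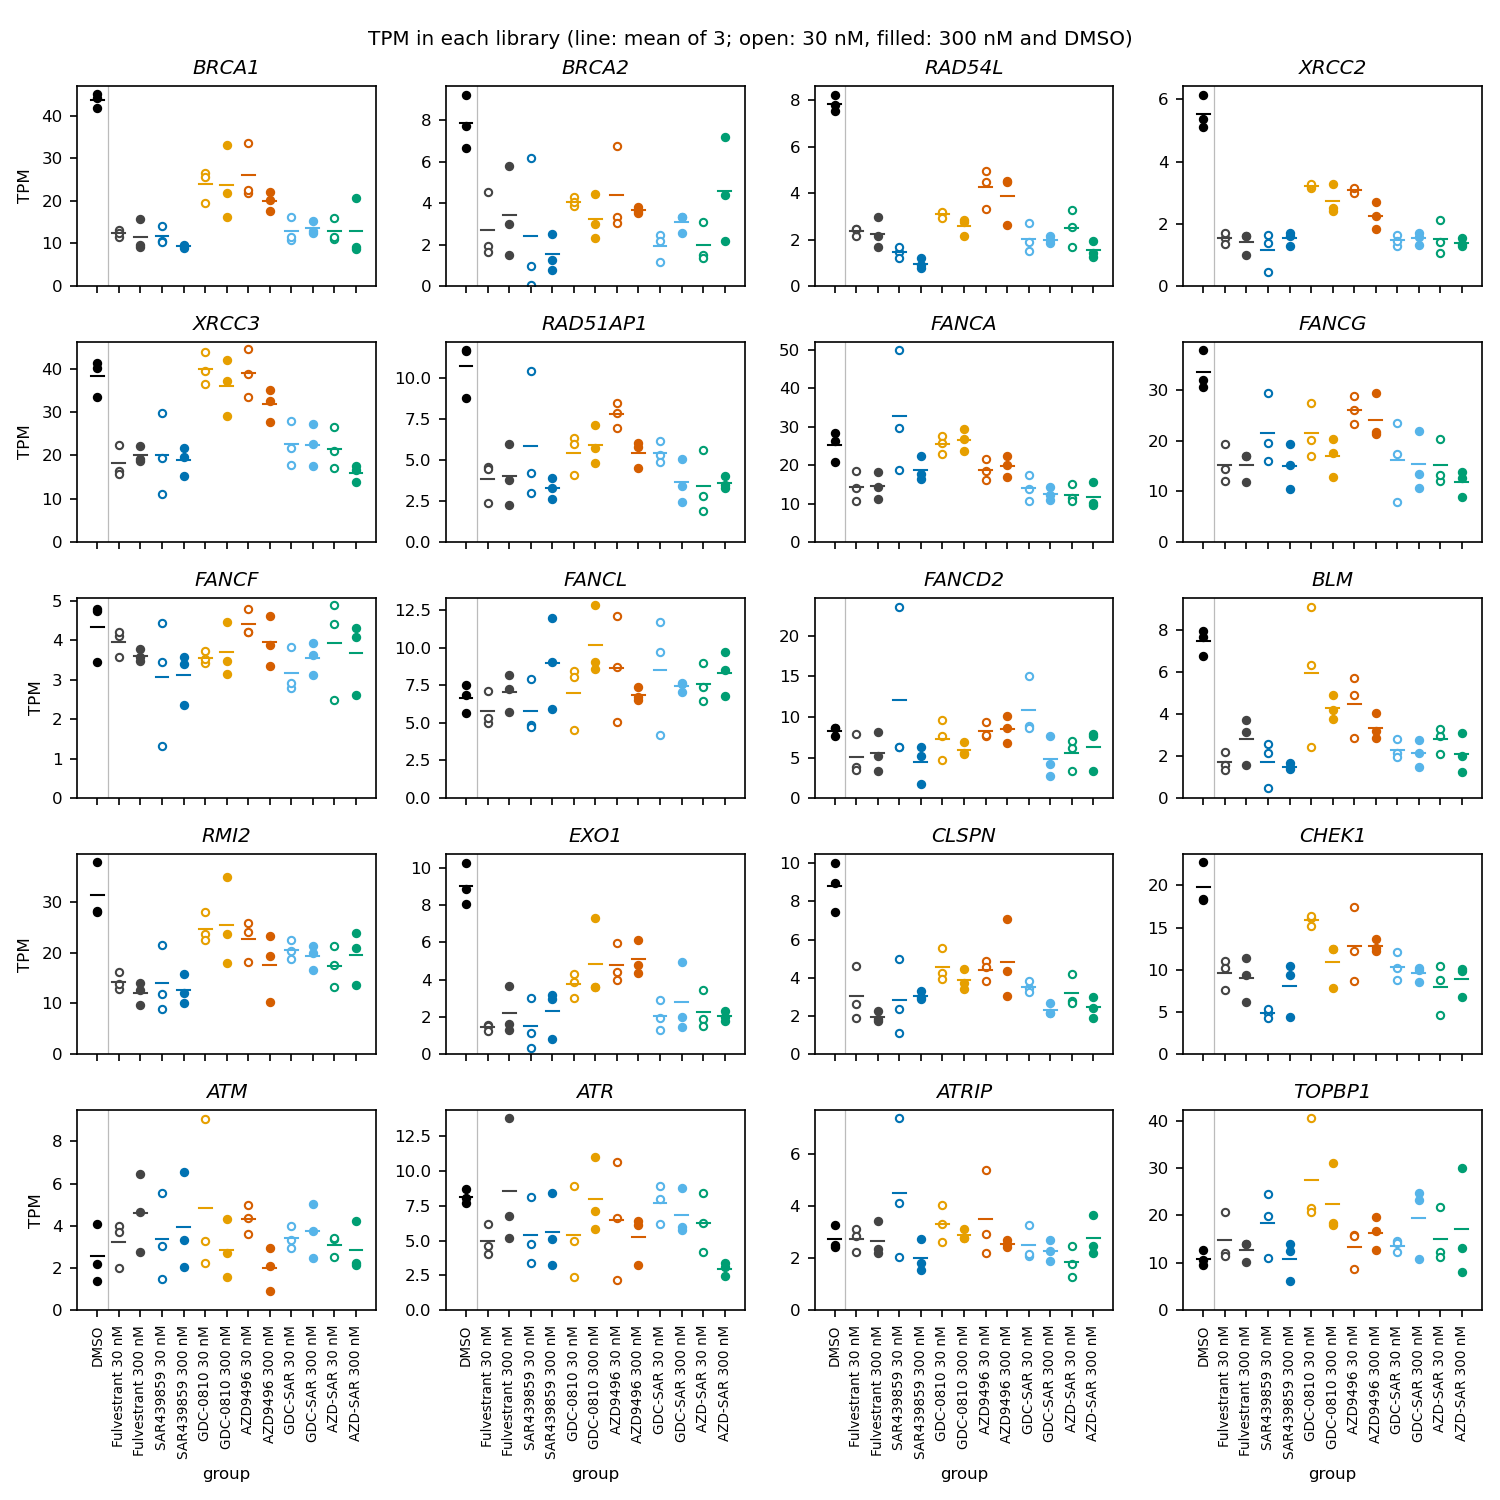
TPM in each of the 39 libraries for 20 of the genes, by group (line, mean of 3; open points, 30 nM; filled points, 300 nM and DMSO). BRCA1, RAD54L, XRCC2, EXO1, CLSPN and CHEK1 show no overlap between DMSO and any treated library, while FANCF, FANCL, ATM and ATRIP overlap throughout or nearly so. The share of all tested genes without such overlap was not counted.

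Of the 8 Fanconi core complex genes, 0 to 3 fell with each ligand at 300 nM. With SAR439859 and GDC-0810 it was 12.5% of the 8, near the 12.8% and 9.04% of all tested genes. With AZD9496 it was 0 against 2.21%. The share was 25% with Fulvestrant (8.12% of all tested genes) and 37.5% with GDC-SAR (10.5%) and AZD-SAR (12.8%). FANCG (chr9:35073835-35080016, minus strand), a scaffold of the core complex, fell in 8 comparisons, of which 3 held without each library. It was at 30.6, 31.9 and 37.98 TPM with DMSO and at 12.5, 8.93 and 13.9 TPM with 300 nM AZD-SAR (-1.45, SE 0.301, adjusted p = 0.000649). With 300 nM AZD9496 it was at 21.3, 21.7 and 29.5 TPM, below every DMSO library but not past the threshold (-0.46, adjusted p = 0.436). FANCA (chr16:89737549-89816657, minus strand), which binds FANCG, fell with Fulvestrant, GDC-SAR and AZD-SAR at both doses, and 3 of these 6 calls held without each library. It was at 20.9, 26.4 and 28.3 TPM with DMSO and at 9.58, 15.6 and 10.2 TPM with 300 nM AZD-SAR (-1.05, SE 0.246, adjusted p = 0.00197). The 30 nM SAR439859 libraries were at 29.6, 18.8 and 50.005 TPM, the highest again in the library that stood apart. FANCC and FANCE, which help to dock FANCD2, and FANCM, a translocase that reads stalled forks, each fell in 2 comparisons, and none of these 6 calls held without each library.

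FANCB, FANCF and FANCL did not pass in any comparison. FANCL (chr2:58159243-58241372, minus strand), the ubiquitin ligase subunit of the core complex, was at 5.63, 7.51 and 6.86 TPM with DMSO and 7.23, 8.19 and 5.71 TPM with 300 nM Fulvestrant. Its differences ran from -0.19 to 0.53 over the 12 comparisons. FANCF (chr11:22622890-22625841, minus strand), an adaptor of the core complex, was at 4.74, 3.46 and 4.79 TPM with DMSO and 3.47, 3.77 and 3.57 TPM with 300 nM Fulvestrant. In each of the 12 comparisons its libraries overlapped with DMSO, and it was called lower with 30 nM SAR439859 without replicate 1 (0.0223). These 2 genes and ATRIP had the smallest median differences of the 38.

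The core complex has a pair of targets. FANCI was at 34.7, 49.8 and 47.0 TPM with DMSO and at 12.002, 11.6 and 10.6 TPM with 300 nM SAR439859 (-1.84, SE 0.389, adjusted p = 0.000749), and fell in 5 comparisons, of which 2 held without each library. FANCD2 (chr3:10026414-10101930, plus strand), its partner, fell in none. FANCD2 was at 8.63, 8.67 and 7.62 TPM with DMSO, at 5.14, 8.12 and 3.37 TPM with 300 nM Fulvestrant (-0.57, SE 0.413, adjusted p = 0.362) and at 6.34, 5.15 and 1.69 TPM with 300 nM SAR439859 (-0.91, adjusted p = 0.11). The SAR439859 values at 300 nM did not overlap with DMSO. At 30 nM SAR439859 they were 6.35, 6.35 and 23.6 TPM. FANCD2 has pseudogene copies that can share its reads, so its level is uncertain. The difference between the responses of FANCI and FANCD2 was not tested.

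Of the 8 end resection and dissolution genes, 6 fell with 300 nM Fulvestrant and SAR439859, 5 with each hybrid and 2 with each parent. The shares were 75%, 62.5% and 25%, against 2.21% to 12.8% of all tested genes over the 6 ligands. EXO1 (chr1:241847967-241895148, plus strand), a nuclease that cuts back broken ends, was at 10.2, 8.07 and 8.84 TPM with DMSO. With 300 nM Fulvestrant it was at 3.67, 1.63 and 1.28 TPM (-1.72, SE 0.358, adjusted p = 0.000767). EXO1 fell in 9 comparisons, of which 8 held without each library, and the highest of its 36 treated libraries was 7.29 TPM, below all DMSO values. BLM (chr15:90717327-90816165, plus strand), the helicase that dissolves crossed strands, was at 7.67, 6.79 and 7.95 TPM with DMSO and 1.65, 1.39 and 1.48 TPM with 300 nM SAR439859 (-1.76, SE 0.316, adjusted p = 0.000119). BLM was at 3.70, 1.58 and 3.17 TPM with 300 nM Fulvestrant (-1.19, adjusted p = 0.00737, and 0.071 without Fulvestrant replicate 2). It fell in 8 comparisons, of which 7 held without each library. It was not called with GDC-0810 or AZD9496, although 300 nM AZD9496 passed with median-of-ratios scaling (0.0326) and without the 30 nM SAR439859 libraries (0.0338), and 1 library of 30 nM GDC-0810 was at 9.11 TPM. RMI2 (chr16:11249619-11381662, plus strand), a BLM partner, was at 37.9, 28.2 and 27.9 TPM with DMSO and 12.7, 14.04 and 9.61 TPM with 300 nM Fulvestrant (-1.30, SE 0.274, adjusted p = 0.000853). RMI2 fell in 5 comparisons, of which 4 held without each library.

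RMI1, the other scaffold of the BLM complex, fell in 10 comparisons, 5 of which held without each library. RBBP8, which encodes the resection starter CtIP, fell in all 12, by 0.60 to 1.12, and 8 held. It was at 5.01, 4.79 and 4.74 TPM with DMSO and between 1.01 and 3.95 TPM in the 36 treated libraries, with no overlap. NBN and RAD50 belong to the same end-sensing complex. NBN fell in 10 comparisons by 0.35 to 0.54, but 2 of these calls held without each library. Its DMSO values were 37.9, 50.004 and 35.4 TPM. With 300 nM Fulvestrant its adjusted p changed from 0.0256 to 0.224 without DMSO replicate 2, to 0.0595 without Fulvestrant replicate 1 and to 0.103 without replicate 2. RAD50 fell in none. Its 3 DMSO libraries were at 11.2, 9.85 and 10.5 TPM, and 26 of the 36 treated libraries lay above all of them, with no call (adjusted p at least 0.078). It was called higher with 300 nM AZD-SAR without replicate 3 (0.0385), with 30 nM Fulvestrant without replicate 2 (0.0207) and with 30 nM SAR439859 without replicate 2 (0.0208). DNA2, a resection nuclease, passed in no comparison, although 30 nM Fulvestrant passed with median-of-ratios scaling (0.0492) and 30 nM SAR439859 without replicate 1 (0.0131).

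Of the 9 checkpoint and fork protection genes, 4 fell with 300 nM Fulvestrant and SAR439859, 5 with AZD-SAR, 3 with GDC-SAR and GDC-0810 and 0 with AZD9496. Apart from AZD9496 (0 against 2.21% of all tested genes), the shares ran from 33.3% to 55.6%, against 8.12% to 12.8%. CLSPN (chr1:35720218-35769967, minus strand), the claspin that brings CHEK1 to ATR, was at 7.45, 8.98 and 10.02 TPM with DMSO. With 300 nM Fulvestrant it was at 2.24, 1.86 and 1.73 TPM (-1.73, SE 0.264, adjusted p = 1.45e-05). It fell in 11 comparisons, of which 9 held without each library; with 300 nM AZD9496 it was at 4.36, 7.10 and 3.04 TPM, which did not pass (-0.80, adjusted p = 0.0681). That value passed without AZD9496 replicate 2 (0.0255), with median-of-ratios scaling (0.0353) and without the 30 nM SAR439859 libraries (0.0173). CHEK1 (chr11:125625136-125676255, plus strand), the effector kinase, was at 18.4, 18.3 and 22.8 TPM with DMSO and 9.38, 11.4 and 6.19 TPM with 300 nM Fulvestrant (-1.09, SE 0.261, adjusted p = 0.00314). Its lowest group was 30 nM SAR439859, at 4.83, 5.39 and 4.25 TPM (-1.84, adjusted p = 3.99e-06, and 5.25e-05 without replicate 3). CHEK1 fell in 9 comparisons, of which 6 held without each library, and all 36 treated libraries were below all DMSO libraries. TIMELESS, which with TIPIN protects stalled forks, fell in 9 comparisons by 0.63 to 1.08, and all 9 held without each library. TIPIN fell in 5, of which 3 held. Its call with 30 nM SAR439859 was lost without replicate 3 (-0.60, adjusted p = 0.0948).

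ATR (chr3:142449235-142578826, minus strand), the kinase that senses stalled forks, was at 8.67, 8.08 and 7.70 TPM with DMSO and 13.8, 6.73 and 5.20 TPM with 300 nM Fulvestrant (-0.04, SE 0.397, adjusted p = 0.966). With 300 nM AZD-SAR it was at 3.37, 3.10 and 2.42 TPM, its only call (-1.21, adjusted p = 0.024). That call was lost without AZD-SAR replicates 2 (0.055) or 3 (0.0631), and without DMSO replicates 1 (0.0635), 2 (0.0592) or 3 (0.0506). ATRIP (chr3:48446710-48467645, plus strand), the partner of ATR, was at 2.42, 2.51 and 3.30 TPM with DMSO and 2.22, 3.42 and 2.37 TPM with 300 nM Fulvestrant. It was called in no comparison, but higher with 30 nM SAR439859 without replicate 2 (0.0188). ATM (chr11:108222484-108369102, plus strand), the kinase that answers double-strand breaks, was at 4.09, 1.39 and 2.20 TPM with DMSO and 2.75, 4.65 and 6.43 TPM with 300 nM Fulvestrant (0.67, SE 0.401, adjusted p = 0.258). ATM overlapped with DMSO in all 12 comparisons. CHEK2, the kinase below ATM, which has pseudogene copies that can share its reads, passed in none. TOPBP1, the activator of ATR, was the one gene that rose, with 30 nM GDC-0810. It was at 12.6, 9.55 and 10.6 TPM with DMSO and 40.5, 21.5 and 20.6 TPM there (1.20, SE 0.384, adjusted p = 0.0299). The call was lost without GDC-0810 replicate 1 (0.195) and without DMSO replicates 2 (0.103) or 3 (0.0787). TOPBP1 was above all DMSO values in 24 of the 36 treated libraries.

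The next question was how far the SAR439859 side chain changed the response on each scaffold. At both doses the genes that passed were lower with the hybrid than with its parent. At 300 nM, GDC-SAR against GDC-0810 gave 1 lower gene among the 38 (0.687% of all tested genes were lower), with a median difference of -0.28. FANCA was at 12.5 ± 1.63 TPM with GDC-SAR and 26.6 ± 2.91 TPM with GDC-0810 (SD, n = 3; -1.03, 95% interval -1.53 to -0.53; limma adjusted p = 0.0261). By library it was 11.0, 12.2 and 14.3 TPM against 26.7, 29.4 and 23.6 TPM, with no overlap. The FANCA call was lost without GDC-0810 replicates 1 (0.105) or 2 (0.125), and without GDC-SAR replicates 1 (0.133), 2 (0.109) or 3 (0.0505). At an unadjusted p below 0.05 there were 8 members, among them XRCC2 (-0.55, 95% interval -0.92 to -0.18) and BRCA1 (-0.71, 95% interval -1.22 to -0.21).

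On the other scaffold, 300 nM AZD-SAR against AZD9496 gave 5 lower genes (6.4% of all tested genes were lower) and a median of -0.35. The median of all tested genes was -0.07, and with median-of-ratios scaling the members' median was -0.27. RAD54L was at 1.24, 1.94 and 1.42 TPM with AZD-SAR and 2.63, 4.52 and 4.47 TPM with AZD9496 (-0.93, 95% interval -1.31 to -0.54; limma adjusted p = 0.00262). It was the only member whose call held without each library. XRCC3 was at 16.0 ± 1.93 against 31.8 ± 3.68 TPM (SD, n = 3; -0.95, interval -1.42 to -0.48; limma adjusted p = 0.0112, and 0.084 without AZD-SAR replicate 1). FANCG was at 11.8 ± 2.57 against 24.2 ± 4.59 TPM (SD, n = 3; -0.98, interval -1.60 to -0.37; limma adjusted p = 0.0392). FANCG was lost without AZD9496 replicates 1 (0.0515), 2 (0.101) or 3 (0.146), and without AZD-SAR replicates 1 (0.117) or 2 (0.174). TIMELESS (-0.72, adjusted p = 0.00573) was lost without AZD9496 replicate 2 (0.055) or AZD-SAR replicate 1 (0.0716). BRIP1 (-0.52, adjusted p = 0.0288) was lost without any 1 AZD9496 library (0.0561, 0.115 and 0.0622) and without AZD-SAR replicates 1 (0.165) or 2 (0.0642). Median-of-ratios scaling moved the split of all genes from 922 lower and 312 higher to 779 and 695, and the members' count stayed 5.

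At 30 nM, GDC-SAR against GDC-0810 gave 3 lower genes (0.701% of all tested genes were lower), BRIP1 (-0.66, adjusted p = 0.0198), TIMELESS (-0.68, adjusted p = 0.0234) and XRCC2 (-0.77, adjusted p = 0.0252). XRCC2 was at 1.65, 1.30 and 1.46 TPM with GDC-SAR and 3.16, 3.20 and 3.27 TPM with GDC-0810, without overlap. AZD-SAR against AZD9496 gave 4 (1.51% of all tested genes), TIMELESS (-0.74, adjusted p = 0.00864), XRCC2 (-0.72, adjusted p = 0.0355), BRCA1 (-0.96, adjusted p = 0.0377) and TIPIN (-1.05, adjusted p = 0.0438). BRCA1 was at 11.1, 11.5 and 15.9 TPM with AZD-SAR and 21.96, 22.6 and 33.6 TPM with AZD9496, without overlap. None of these 7 calls held without each library. Of the GDC-SAR calls, all 3 were lost without GDC-0810 replicate 1 (BRIP1 0.117, TIMELESS 0.106, XRCC2 0.0746) or replicate 2 (0.119, 0.116 and 0.0913), and without GDC-SAR replicate 2 (0.0698, 0.124 and 0.122) or 3 (0.0593, 0.151 and 0.084). BRIP1 and XRCC2 were also lost without GDC-SAR replicate 1 (0.0814 and 0.0525), and XRCC2 without GDC-0810 replicate 3 (0.086). Of the AZD-SAR calls, XRCC2, BRCA1 and TIPIN were lost without AZD9496 replicate 1 (0.0999, 0.0539 and 0.159) or 2 (0.1, 0.0711 and 0.179), and without AZD-SAR replicate 1 (0.243, 0.191 and 0.145) or 2 (0.119, 0.148 and 0.0852). All 4 were lost without AZD9496 replicate 3 (TIMELESS 0.0614, XRCC2 0.133, BRCA1 0.279, TIPIN 0.0503), and TIPIN also without AZD-SAR replicate 3 (0.175). Median-of-ratios scaling left 1 of these 4, with the split of all genes at 139 lower and 78 higher instead of 218 and 24.

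**Figure D4:**
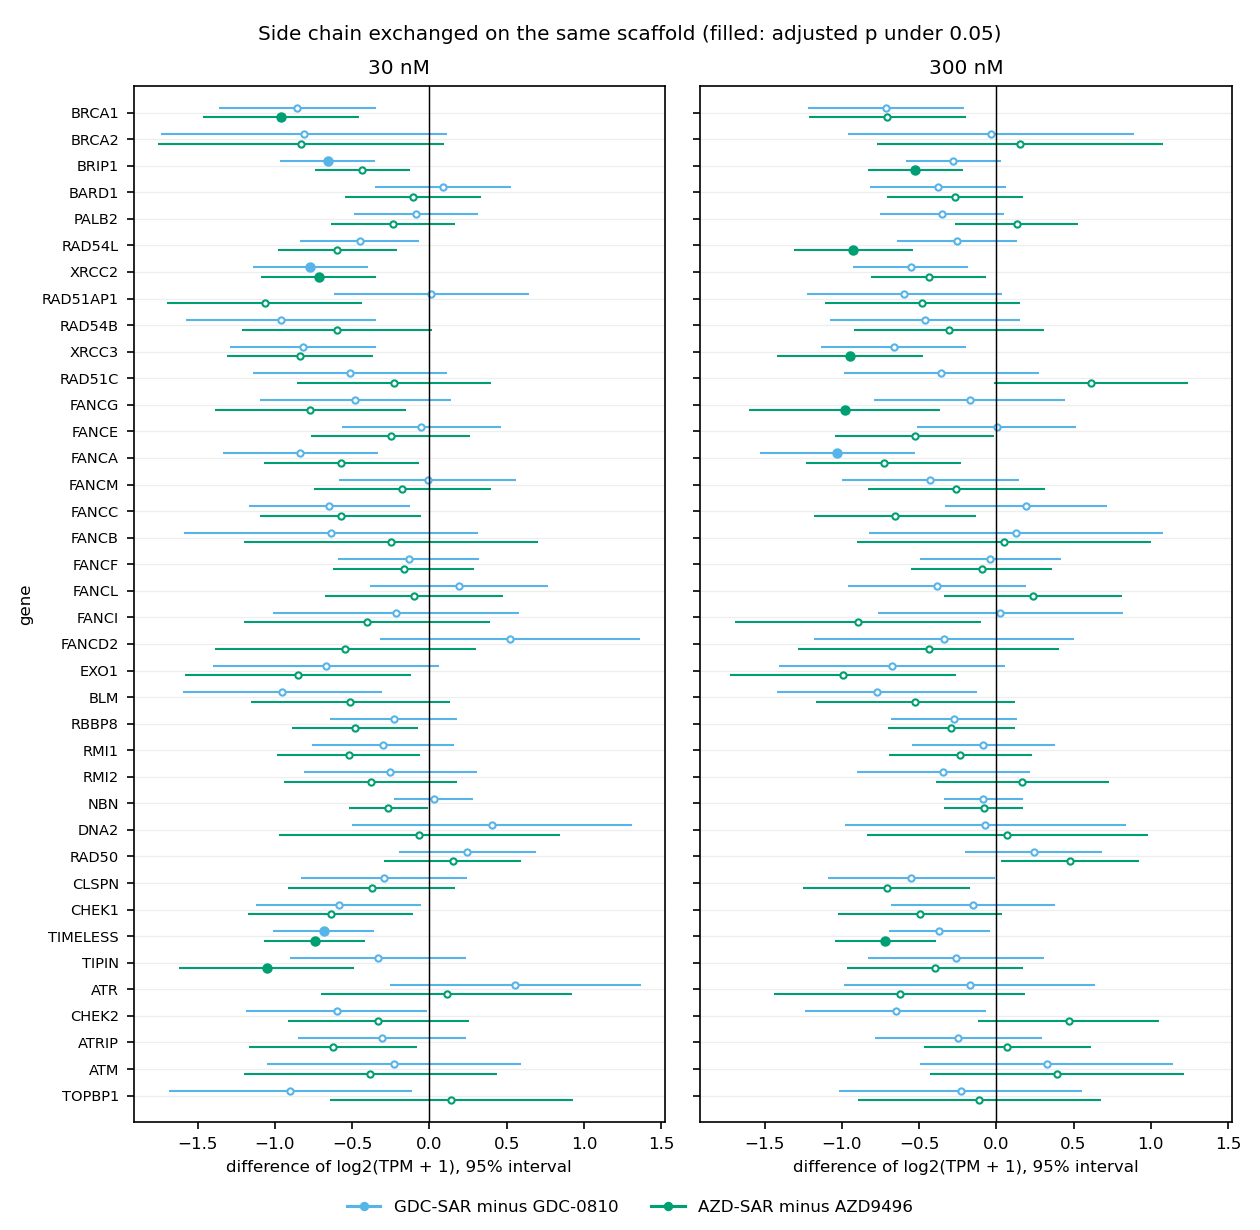
Difference between each hybrid and its parent ligand on the log2(TPM + 1) scale with 95% intervals for the 38 genes, by dose and scaffold, with called genes marked. Most points lie below 0, from 27 of 38 (AZD9496 scaffold, 300 nM) to 35 of 38 (AZD9496 scaffold, 30 nM), and most intervals include 0. The median of all tested genes at 300 and 30 nM was -0.07 and -0.11 on the AZD9496 scaffold, and 0.02 and 0.03 on the GDC-0810 scaffold. With median-of-ratios scaling 26 and 32 of the 38 lay below 0 on the AZD9496 scaffold, and 33 and 31 on the GDC-0810 scaffold. The share of all tested genes below 0 was not counted.

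Fitted on only the libraries compared, none of the side chain calls on the 38 genes passed. Whether the side chain acted differently on the 2 scaffolds was tested directly, and limma called 0 members at either dose (0.00694% of all tested genes at 300 nM and 0 at 30 nM). At an unadjusted p below 0.05 there were 4 at 300 nM and 1 at 30 nM. CHEK2 came nearest at 300 nM (1.12, 95% interval 0.29 to 1.95; adjusted p = 0.219), followed by RAD54L (-0.67, interval -1.22 to -0.13; adjusted p = 0.247). The CHEK2 libraries were widely spread, at 17.3, 9.54 and 6.47 TPM with 300 nM GDC-0810 and 14.7, 5.96 and 8.16 TPM with 300 nM AZD-SAR. RAD51AP1 was the 1 at 30 nM (-1.08, interval -1.97 to -0.18; adjusted p = 0.891).

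Between ligands that share the side chain, no more than 1 of the 38 genes was called in any pair. At 300 nM limma called 0 of the 38 between GDC-SAR and SAR439859 and 0 between AZD-SAR and SAR439859, with 6 and 4 at an unadjusted p below 0.05. The 2 hybrids differed in 0 genes at 300 nM (3 unadjusted) and 0 at 30 nM (2 unadjusted). In these pairs 0 of all 14404 genes were called at 300 nM. FANCA was lower than with 30 nM SAR439859 with both 30 nM GDC-SAR (-1.09, adjusted p = 0.0475, against 0.132% of all tested genes lower) and AZD-SAR (-1.24, adjusted p = 0.0367, against 0.0347%), but both rested on the SAR439859 library that stood apart. Without SAR439859 replicate 3 these became -0.73 (0.238) and -0.89 (0.418). They were also lost without GDC-SAR replicates 1 (0.181), 2 (0.106) or 3 (0.0712), and without AZD-SAR replicates 1 (0.195), 2 (0.133) or 3 (0.0828). SAR439859 and Fulvestrant differed in 0 members at 300 nM (2 unadjusted) and 0 at 30 nM (6 unadjusted), where 0 and 0.0139% of all tested genes were called. For the hybrids against 30 nM SAR439859, median-of-ratios scaling moved the split of all genes from 19 lower and 18 higher to 24 and 39 (GDC-SAR), and from 5 and 3 to 9 and 25 (AZD-SAR). The 2 parents, AZD9496 and GDC-0810, differed in 0 members at 300 nM (4 unadjusted) and 0 at 30 nM (1 unadjusted), where 1.12% and 0.0208% of all tested genes were called. At 300 nM that was 14 lower and 147 higher, or 7 and 7 with median-of-ratios scaling. These intervals were wide: for BRCA1 the difference between 300 nM AZD-SAR and GDC-SAR was -0.18 (95% interval -0.68 to 0.33), and for RAD54L between 300 nM AZD-SAR and SAR439859 it was 0.37 (95% interval -0.02 to 0.75). A p above the threshold here does not show that these ligands act alike.

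Between 30 and 300 nM limma called 0 of the 38 genes with any ligand, and 0 of the 14404 genes tested. At an unadjusted p below 0.05 there were 1 member with Fulvestrant, 5 with SAR439859, 0 with GDC-0810, 1 with AZD9496, 2 with GDC-SAR and 3 with AZD-SAR. FANCD2 was lower at the higher dose with SAR439859 (4.39 ± 2.41 against 12.1 ± 9.94 TPM, SD, n = 3; -1.15, 95% interval -1.99 to -0.31; limma adjusted p = 0.288). That difference includes the 30 nM library with 23.6 TPM. With GDC-SAR, FANCD2 was at 4.84 ± 2.54 against 10.9 ± 3.58 TPM (SD, n = 3; -1.07, interval -1.92 to -0.23; limma adjusted p = 1). The median dose difference of the 38 genes lay between -0.14 and 0.03.

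Of 43 further recombination and Fanconi genes, 11 (25.6%) fell and 1 rose with 300 nM Fulvestrant, where 8.12% of all tested genes fell and 11.1% rose. FIGNL1, an ATPase of recombination, fell by 1.31, UBE2T, the ubiquitin-conjugating enzyme of the core complex, by 1.10, and GEN1, a junction-cutting nuclease, by 1.04. With SAR439859, GDC-SAR and AZD-SAR at 300 nM 13, 11 and 12 fell and 2 rose in each, and with GDC-0810 and AZD9496 3 fell in each. The first 3 shares lower were 30.2%, 25.6% and 27.9%, against 12.8%, 10.5% and 12.8% of all tested genes. With the 2 parents the share was 6.98%, against 9.04% with GDC-0810 and 2.21% with AZD9496. Of 22 further checkpoint genes, 5 fell with 300 nM Fulvestrant: the CDK1-inhibiting kinase PKMYT1 by 1.95, the damage-marking histone H2AFX by 1.78, the CDK phosphatase CDC25A by 1.73, the damage mediator MDC1 by 1.11, and RHNO1 by 0.59. At 300 nM the counts were 10 with SAR439859, 6 with GDC-0810, 2 with AZD9496 and 8 with each hybrid. Over the 6 ligands that is 9.09% to 45.5% of the 22, against 2.21% to 12.8% of all tested genes.

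Of 13 end joining genes 2 fell with 300 nM Fulvestrant, XRCC5 by 0.77 and XRCC6 by 0.74, which together bind broken ends. Of 34 excision repair genes 4 fell and 3 rose, among them UNG, the uracil glycosylase, which fell by 1.20, and APEX2, a nuclease, and LIG3, a ligase, which rose by 0.93 and 0.91. The genes lower were 15.4% of the end joining list and 11.8% of the excision repair list, not far from the 8.12% of all tested genes. Higher were 11.1% of all tested genes. Over the 6 ligands at 300 nM, 1 to 6 of the 34 excision repair genes fell and 2 to 5 rose. The genes lower were 2.94% to 17.6% of that list, against 2.21% to 12.8% of all tested genes. Of all tested genes 3.71% to 12.7% were higher. The medians with Fulvestrant were -0.21, -0.26, -0.12 and -0.05 for these 4 lists in the order given, against -0.77 for the 38 genes and 0.09 for all genes tested. The lists were chosen with earlier results of these data known and were not compared with one another by a test.

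Genes of S phase and growth moved in the same direction. Of 20 such genes, which are not among the 38, 17 fell with 300 nM Fulvestrant, 17 with SAR439859, 15 with GDC-SAR, 16 with AZD-SAR, 12 with GDC-0810 and 10 with AZD9496. That is 50% to 85% of the 20, against 2.21% to 12.8% of all tested genes over the 6 ligands. The summed level of the 20 genes was 1625 to 1718 TPM with DMSO. At 300 nM it was 728 to 758 TPM with SAR439859, 802 to 875 TPM with Fulvestrant, 802 to 923 TPM with GDC-SAR and 793 to 843 TPM with AZD-SAR. With GDC-0810 and AZD9496 it was 1103 to 1178 and 945 to 1153 TPM. PCNA, the replication clamp, fell by 1.61 and MKI67, the proliferation marker, by 0.50 with 300 nM Fulvestrant. The 4 ligands with the most members lower also had the lowest S phase sums, and the part of this list in the members' falls was not tested. In bulk RNA, fewer cells in S phase and less RNA per cell cannot be told apart. COL1A1 of the fibroblast list was 0.72 and 0.74 higher with 300 nM GDC-SAR and AZD-SAR, where the summed level of that list was 19.1 to 32.3 TPM, and its part was not tested.

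**Figure D5:**
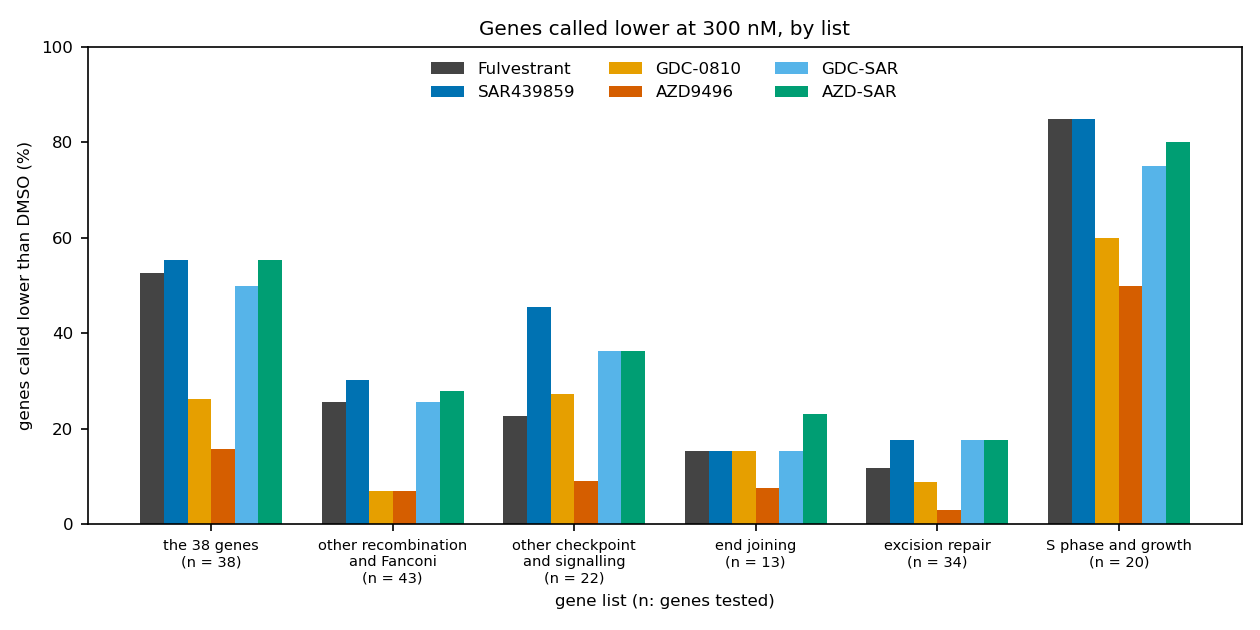
Percent of genes called lower than DMSO at 300 nM by limma (adjusted p below 0.05) for the 38 genes and the 5 other lists, by ligand. With Fulvestrant 17 of 20 S phase genes and 20 of the 38 were lower, against 2 of 13 end joining and 4 of 34 excision repair genes. Of all tested genes 8.12% were lower there.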

How the data were processed

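Stranded NuGEN libraries were prepared from DNase-treated RNA (Qiagen), per the labels' protocols. The submitters' processing notes name STAR and GRCh38. No version, counting tool, strand setting or annotation is stated in those notes or labels. The authors deposited 1 table of TPM for all 39 libraries, and each column sums to 1000000, so depth is unknown and no counting interval can be given. Each group has 3 labelled libraries, although the design text of the series mentions duplicate treatment.

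From the deposited TPM, log2(TPM + 1) was fitted with limma 3.58.1 (R 4.3.3, trend on mean level) for the 14404 of 39392 symbols above 0 anywhere that had a mean of at least 1 TPM. The fit held all 13 groups, with 26 residual degrees of freedom. P-values were Benjamini-Hochberg adjusted within each of the comparisons over all genes tested, with a threshold of 0.05, and intervals are 95%. The procedure was checked on simulated data. The members and all lists were chosen with earlier results of these data known. Values by library were given for BRCA1, BRCA2, CHEK1, FANCD2, ATM and ATR, and for the 8 largest calls with 300 nM Fulvestrant. They were also given for up to 3 of the largest calls in each 300 nM side chain comparison and the 3 members with the smallest median difference. For called genes named from other lists, and for PGR, GREB1, MKI67 and PCNA, differences were given without values by library. Other members named with values, TOPBP1 among them, were chosen after their values were seen. Alternatives were a pseudocount of 0.1, no filter, median-of-ratios scaling, only the libraries compared, each library left out, and a fit without the 30 nM SAR439859 libraries. Gene positions are from GENCODE (GRCh38) and promoters from RefSeq (GRCh38.p14). Some results are not reported here.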

Additional observations from a re-analysis of the deposited data

How the results depend on the processing

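No paired analysis was possible because the replicate numbers were given in accession order and pair no libraries. No called difference of a member reversed its direction under the alternatives run, while the balance of all genes turned with scaling, as given above. Among alternatives that left out no single library, counts of members stayed within 1.5 times in 269 cases and moved further in 22, listed here. Many of the 269 were counts of 0 that stayed 0, so these numbers do not give the share of counts above 0 that held. The cause of the moves was not tested. Without the filter the members lower than DMSO became 6 for 300 nM GDC-0810, 3 for 30 nM GDC-0810 (with 0 higher) and 2 for 30 nM AZD9496. The same choice left 0 for GDC-SAR against GDC-0810 at 300 nM, 2 for AZD-SAR against AZD9496 at 30 nM and 0 for GDC-SAR against SAR439859 at 30 nM. With a pseudocount of 0.1 the counts lower became 4 for 30 nM GDC-0810 and 1 for 30 nM AZD9496. Median-of-ratios scaling gave 11 for 300 nM AZD9496, 1 for AZD-SAR against AZD9496 at 30 nM and 0 for GDC-SAR against SAR439859 at 30 nM. With only the libraries compared, 30 nM SAR439859 had 10 members lower, and 0 were called in the 4 side chain pairs and between either hybrid and 30 nM SAR439859; such fits have fewer libraries to estimate the spread. Without the 30 nM SAR439859 libraries the counts were 10 for 300 nM AZD9496, 8 for AZD-SAR against AZD9496 at 300 nM and 5 for GDC-SAR against GDC-0810 at 30 nM.

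Leaving out 1 library gave 5 to 10 members lower for 300 nM GDC-0810, 3 to 6 for 300 nM AZD9496, 2 to 5 for 30 nM GDC-0810 (0 to 1 higher) and 1 to 4 for 30 nM AZD9496. Members higher ranged from 0 to 1 for 300 nM AZD-SAR and 30 nM Fulvestrant and from 0 to 2 for 30 nM SAR439859. For GDC-SAR against GDC-0810 the count lower ranged from 0 to 1 at 300 nM and 0 to 3 at 30 nM, and for AZD-SAR against AZD9496 from 2 to 5 and 0 to 3. Against 30 nM SAR439859 it ranged from 0 to 2 for each hybrid (0 to 1 higher for GDC-SAR). It ranged from 0 to 1 higher for 30 nM SAR439859 against Fulvestrant, and from 0 to 2 called between the SAR439859 doses. TPM keeps no depth, so the precision of low members such as ATM and ATRIP is known only from 3 libraries a group.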
